A study of Mus musculus with 3 samples.

Results

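Genes of glycolysis and of the response to low oxygen were followed across dermal fibroblasts of 3 Fgfr3 genotypes, each represented by 1 deposited array column. The set was a list of 38 mouse genes, and a gene was included when an array probe set was annotated to its symbol alone. By this rule 33 of the 38 were found, among 7843 genes named in the same way on the arrays, and the other 5 (Egln3, Bnip3l, Gpi1, Eno1 and Slc16a3) were not analysed here. Of the 33, Gapdh had only a control probe set, so 32 members entered the counts. FGFR3Act cells came from Fgfr3G374Rneo- mice, whose receptor has the G374R change and is active in the absence of ligand. FGFR3KO cells came from FGFR3G374Rneo+ mice, which carry the same change with the neo cassette retained and make no functional receptor, per the labels. The FGFR3WT control was from wild type Bl6 animals. All 3 were grown in fibroblast growth medium with no treatment, and neither age, passage nor the strain of the mutants is given in the sources used here. The series states n = 3 per group, but the sources do not say what 1 column stands for, be it a culture, pooled RNA or an average. No spread between replicates could be computed, and each difference given compares 2 arrays, without a p-value.

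Glycolysis splits glucose into pyruvate in the cytosol, and pyruvate is then reduced to lactate or passed to the mitochondria. Hypoxia-inducible factor (HIF) is a dimer of an oxygen-labile alpha subunit (Hif1a or Epas1) with the stable partner Arnt, and it binds short DNA words near its target genes. When oxygen is present, prolyl hydroxylases such as Egln1 mark the alpha subunit for degradation, so HIF activity is set mostly at the protein and not at the transcript of Hif1a. Many glycolytic enzymes and glucose transporters, as well as Adm, Bnip3, Ndrg1 and Egln1 itself, are known HIF targets. Fibroblasts in culture commonly make much lactate.

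The values are MAS5 signals, linear intensities that Affymetrix's algorithm gives for each probe set. A floor, set at the 40th percentile of each array, lay at signals of 121 to 123, and signals under it were set to it before the log2 step. A gene entered a comparison when at least 1 of its arrays gave a signal over that floor. Of the 32 members, 27 were above the floor on at least 1 array and 26 on all 3, and 5 (Epas1, Arnt, Slc2a3, Slc16a1 and Pgam2) were below it on every array. Signals of different probe sets were not compared as levels, since probes differ in how well they bind. As a measure of technical disagreement, 395 genes had at least 2 probe sets above the floor on all arrays. For FGFR3KO against FGFR3WT their top 2 probe sets gave differences that lay apart by a median of 1.31-fold and by 1.90-fold at the 90th percentile. The corresponding values were 1.23-fold and 1.83-fold for FGFR3Act against FGFR3WT, and 1.34-fold and 2.41-fold for FGFR3Act against FGFR3KO.

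The arrays themselves differed in cell markers. All 11 fibroblast markers found were above the floor on each array. Their signals summed to 55009 for FGFR3Act, 79021 for FGFR3KO and 59170 for FGFR3WT. Relative to wild type, 7 had a smaller signal and 4 a larger one in FGFR3Act, whereas in FGFR3KO 4 were smaller and 7 larger. Pdgfrb alone passed 2-fold from wild type, its FGFR3Act signal being 2.35-fold smaller. Between the mutants Pdgfrb (2.07-fold) and Col3a1 (2.42-fold) did so, both with the larger signal in FGFR3KO. Of 14 macrophage and leukocyte markers, FGFR3Act had 11 over the floor, FGFR3KO 3 and FGFR3WT 2, with summed signals of 19867, 1478 and 1253. Lyz2, a macrophage lysozyme, had signals of 7037, 48.2 and 51.4 in that order. Ptprc, the pan-leukocyte antigen, and the markers Itgam and Aif1 were below the floor on all 3. Cx3cr1 was highest on FGFR3KO, with signals of 240, 285 and 199 in the same order. The part of such cells, if present, in the FGFR3Act values below was not tested. No endothelial marker of 6 was above the floor on any array, 1 of 4 keratinocyte markers was so on FGFR3KO alone, and 1 of 3 erythroid markers was so on each array. The Fgfr3 probe set gave signals of 1.06 to 3.76, far below the floor, and so did not check the genotypes.

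**Figure D1:**
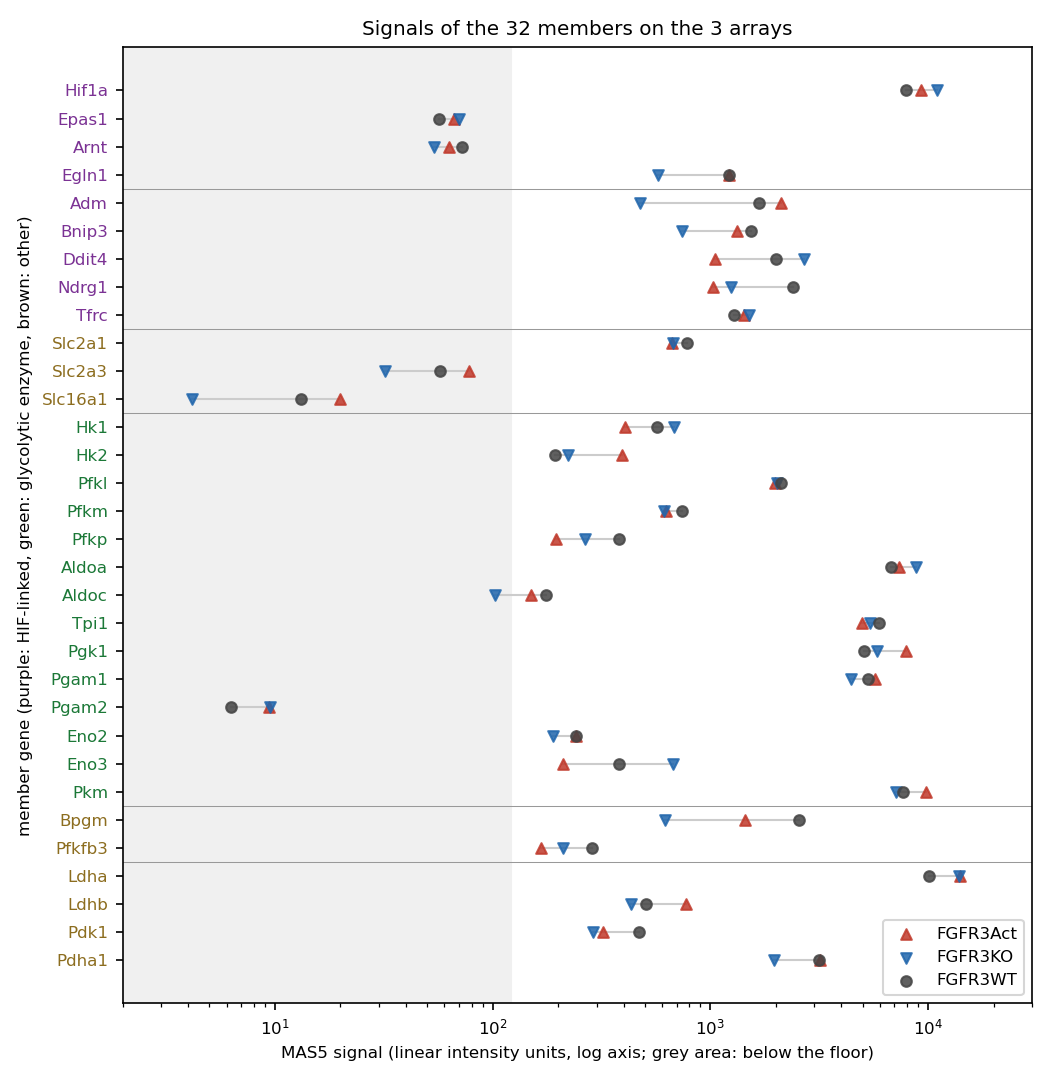
MAS5 signals of the 32 members on the FGFR3Act, FGFR3KO and FGFR3WT arrays (1 point per array, log axis), grouped by role and joined by a grey line for each gene. The widest gaps above the floor are those of Adm and Bpgm, whose FGFR3KO signals of 476 and 619 lie below both other arrays, while the enzymes Pfkl and Tpi1 lie nearly on top of each other.

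Among the HIF-linked members, 3 lay at least 2-fold below FGFR3WT on the FGFR3KO array (3.61% of all genes compared did), and these 3 were near the wild-type signal on FGFR3Act. Adm encodes adrenomedullin, a secreted vasodilator peptide. Its signal was 476 on FGFR3KO, 1678 on FGFR3WT and 2115 on FGFR3Act. FGFR3KO was thus 3.53-fold below FGFR3WT and 4.44-fold below FGFR3Act, with FGFR3Act 1.26-fold above FGFR3WT. Egln1, the main prolyl hydroxylase that senses oxygen, had signals of 576 on FGFR3KO, 1215 on FGFR3WT and 1213 on FGFR3Act. Its FGFR3KO signal was 2.11-fold below each of the others, which were level with each other. Bnip3, a mitochondrial outer membrane protein that promotes mitophagy, had signals of 742 on FGFR3KO, 1543 on FGFR3WT and 1329 on FGFR3Act. It was 2.08-fold lower on FGFR3KO than on FGFR3WT and 1.79-fold lower than on FGFR3Act. The Bnip3 difference from FGFR3WT lay just under 2-fold after quantile normalisation (log2 -0.97) and cyclic loess (log2 -0.97). The arrays also differed in their control probe sets. The 3 for 18S ribosomal RNA gave FGFR3KO signals 1.65 to 2.44 times those of FGFR3WT, and FGFR3Act signals 0.50 to 1.12 times those. The ratio of 3′ to 5′ beta-actin signal, which rises as RNA degrades, was 1.82 on FGFR3KO, 1.64 on FGFR3WT and 1.44 on FGFR3Act. The part of RNA quality in the FGFR3KO differences was not tested.

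The sequences upstream of these 3 genes are shown because the genes lay low together and are known HIF targets. Those of Bpgm, the glycolytic side enzyme furthest below wild type on FGFR3KO, and of Ldha, a HIF target whose deposited signal was not lower there, are set beside them for comparison. Each is the stretch of 250 bases before the RefSeq transcription start (assembly GRCm38.p6), 5′ to 3′. Capitals mark the letters ACGTG or GCGTG, the usual cores of HIF sites, read on either strand, where they appear as CACGT or CACGC on the reverse strand. The palindrome CACGTG holds ACGTG on both strands, is counted as 2 matches, and is also the word bound by Myc and related E-box factors.
Adm, chr7:110627407-110627656, plus strand: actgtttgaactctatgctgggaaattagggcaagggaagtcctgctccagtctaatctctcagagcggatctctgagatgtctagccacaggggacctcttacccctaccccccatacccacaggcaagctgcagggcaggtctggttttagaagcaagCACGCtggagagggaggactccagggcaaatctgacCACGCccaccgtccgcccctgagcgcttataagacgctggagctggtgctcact
Egln1, chr8:124949255-124949504, minus strand: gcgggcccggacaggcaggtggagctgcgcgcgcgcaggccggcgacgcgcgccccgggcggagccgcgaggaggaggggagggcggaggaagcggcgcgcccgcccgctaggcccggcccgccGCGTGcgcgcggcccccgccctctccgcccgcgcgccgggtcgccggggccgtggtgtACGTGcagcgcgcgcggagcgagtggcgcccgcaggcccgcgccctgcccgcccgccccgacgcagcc
Bnip3, chr7:138909507-138909756, minus strand: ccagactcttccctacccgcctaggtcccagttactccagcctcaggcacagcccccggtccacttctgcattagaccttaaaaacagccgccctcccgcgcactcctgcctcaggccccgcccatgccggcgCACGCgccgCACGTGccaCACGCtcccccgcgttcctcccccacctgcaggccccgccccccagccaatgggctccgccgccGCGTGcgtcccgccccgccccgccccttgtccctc
Bpgm, chr6:34476106-34476355, plus strand: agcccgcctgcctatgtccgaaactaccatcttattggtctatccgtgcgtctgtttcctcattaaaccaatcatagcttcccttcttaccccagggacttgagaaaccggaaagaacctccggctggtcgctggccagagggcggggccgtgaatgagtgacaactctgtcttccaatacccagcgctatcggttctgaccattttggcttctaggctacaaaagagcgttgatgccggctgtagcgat
Ldha, chr7:46845554-46845803, plus strand: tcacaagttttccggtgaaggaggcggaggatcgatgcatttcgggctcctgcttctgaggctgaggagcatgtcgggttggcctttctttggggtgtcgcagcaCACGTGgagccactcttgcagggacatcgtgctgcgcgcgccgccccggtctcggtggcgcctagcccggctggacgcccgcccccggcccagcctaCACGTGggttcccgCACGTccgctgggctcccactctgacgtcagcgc
Adm held 2 matches, both GCGTG. Egln1 held 2, 1 of each word. Bnip3 held 5, among them 1 palindrome. Bpgm held 0. Ldha held 5 at this start, all ACGTG, in 2 palindromes and 1 single word, and 1 GCGTG at its other listed start.

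Across the members such letters were common in both classes. Of the 32 members, 29 had an entry in the RefSeq promoter table, and 25 of these (86.2%) held at least 1 match at any listed start. Ndrg1, Epas1 and Slc2a3 had no entry. A match was held by 7 of 7 HIF-linked members and 11 of 14 glycolytic enzymes. The share was 57.4% of the 6269 genes named on the arrays that had an entry and 41.5% of all 27025 genes listed. For ACGTG alone the counts were 5 of 7 and 6 of 14, against 23.9% of the genes on the arrays and 18.5% of all genes listed. For GCGTG alone they were 6 of 7 and 7 of 14, against 46.1% and 30.9%. The windows of HIF-linked members had a median GC content of 66.4%, those of glycolytic enzymes 58.8% and those of genes on the arrays 58.8%, and both words hold a CpG. A match describes letters in the window and not a bound site.

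The other HIF-linked members did not share the pattern of Adm, Egln1 and Bnip3. Ndrg1, a stress-induced cytoplasmic protein, had signals of 1024 for FGFR3Act, 1239 for FGFR3KO and 2388 for FGFR3WT. Both mutants lay below wild type, FGFR3Act by 2.33-fold and FGFR3KO by 1.93-fold. The other Ndrg1 probe set gave the same order, with log2 differences from FGFR3WT of -1.37 and -0.89. Ddit4, an inhibitor of the growth kinase mTORC1 that is induced by hypoxia and other stresses, ran the other way from Adm. Its signal was lowest on FGFR3Act at 1055, with 2011 on FGFR3WT and 2688 on FGFR3KO, so that FGFR3Act was 2.55-fold below FGFR3KO. Tfrc, the transferrin receptor that imports iron, had signals of 1429 for FGFR3Act, 1504 for FGFR3KO and 1279 for FGFR3WT, all within 1.18-fold. The Tfrc value rests on 1 probe set, since the other was below the floor on every array (3.50 to 32.5), as were its 3 control probe sets (2.62 to 83.7). With the mean over both probe sets the Tfrc log2 difference of FGFR3KO from FGFR3WT changed sign, from 0.23 to -0.54.

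The deposited signal of the HIF alpha subunit Hif1a was not lower on FGFR3KO. Hif1a signals were 9284 on FGFR3Act, 10939 on FGFR3KO and 7939.9 with FGFR3WT, so FGFR3KO was highest, by 1.38-fold over wild type. That difference rested on the scaling, as its log2 value of 0.46 became -0.02 after quantile normalisation and 0.05 after cyclic loess. The second Hif1a probe set gave nearly the same log2 difference, 0.48, with no further scaling. Both carry the _f_ suffix, which Affymetrix gives to probes that can bind several related sequences. Epas1, the other alpha subunit, had signals of 57.0 to 69.7, and Arnt, the partner of both, signals of 54.0 to 72.6. These lay below the floor on each array, so their levels could not be compared.

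Glycolytic enzymes lay closer to wild type than the HIF-linked members on FGFR3KO. Of 13 enzymes compared in FGFR3KO against FGFR3WT, 0 were 2-fold apart, and their differences ran from -0.53 to 0.82 on the log2 scale with a median of -0.11. The side enzymes Bpgm (-2.05) and Pfkfb3 (-0.44) were placed in neither class. Nor were Slc2a1 (-0.20), Ldha (0.47), Ldhb (-0.24), Pdk1 (-0.71) and Pdha1 (-0.68). The contrast of the classes rests on this sorting, as Slc2a1, Ldha and Pdk1 are also HIF targets. The 7 HIF-linked members ran from -1.82 to 0.46, with 3 at least 2-fold lower and 0 higher by that much. Among all 5184 genes compared, 3.61% were lower by 2-fold or more, 1.93% higher and 5.54% either. The median size of the difference, regardless of sign, was 0.27 for enzymes, 0.95 for HIF-linked members and 0.33 for all genes. The signed median of the HIF-linked members was -0.95, which is the value of Ndrg1, as the members fell into 4 lower and 3 higher genes with none between -0.95 and 0.23. That median is a poor summary, since it was -0.43 with the floor at the 20th percentile and 0.01 when the 2 members below the floor were kept. The HIF-linked median minus the enzyme median was -0.84, a difference that carries the same weakness.

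**Figure D2:**
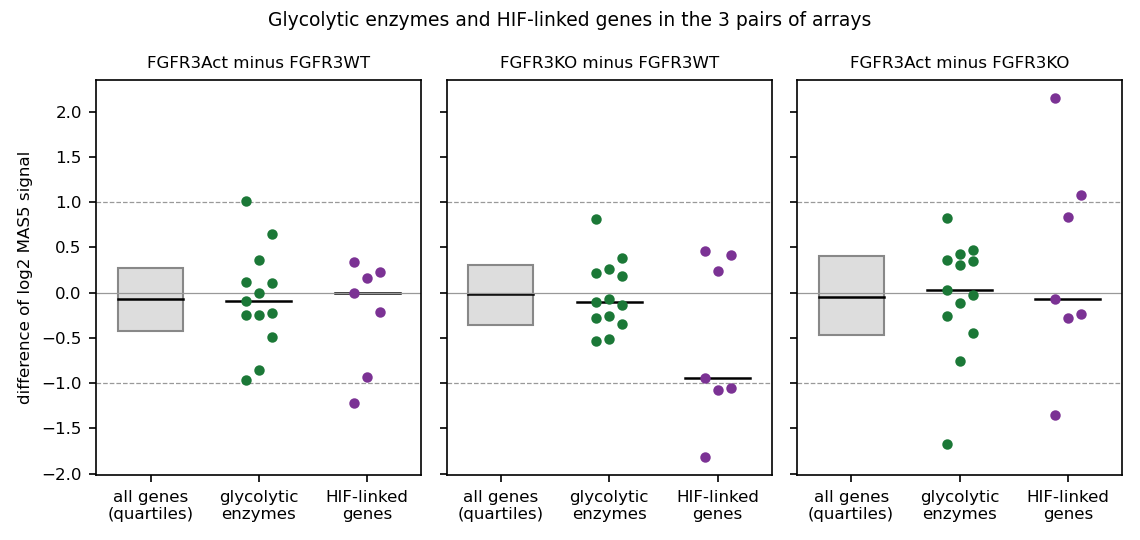
Difference of log2 MAS5 signal in each pair of arrays for the 13 glycolytic enzymes and 7 HIF-linked members compared (1 point per gene, black lines are medians), beside the quartiles of all genes compared (grey boxes). For FGFR3KO minus FGFR3WT the enzymes stay within the dashed 2-fold lines, while the HIF-linked members lie in 2 clumps, 4 at -0.95 or below and 3 at 0.23 or above. Members in neither class, among them Bpgm, are not drawn.

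In FGFR3Act against FGFR3WT the classes were alike in size of difference. The enzymes had a median of -0.09 and a median size of 0.25, and the HIF-linked members a median of -0.00278 and a median size of 0.23, against -0.07 and 0.35 over all 5244 genes. Past 2-fold, 1 enzyme was higher (Hk2) and 1 HIF-linked member lower (Ndrg1), where 4.14% of all genes were higher and 4.79% lower. Over all 27 members compared, 2 of 27 were 2-fold apart, against 8.92% of all genes. FGFR3Act against FGFR3KO had 5 of 27 members 2-fold apart, 3 higher (Adm, Bpgm and Egln1) and 2 lower (Eno3 and Ddit4), against 15.8% of 5297 genes. The class medians there were 0.03 for enzymes and -0.07 for HIF-linked members. The first pair of comparisons shares the wild-type array, and the last shares an array with each of them, so they are not separate observations.

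The enzymes of the first steps included the hexokinases, which trap glucose in the cell as glucose 6-phosphate. Hk2, the inducible form, had signals of 391 for FGFR3Act, 221 for FGFR3KO and 194 for FGFR3WT, FGFR3Act being 2.01-fold above FGFR3WT. Hk1, the widely expressed form, ran the other way, at 404, 681 and 567. The ratio of Hk2 to Hk1 signal was therefore 2.82-fold larger on FGFR3Act than on FGFR3WT, and nearly equal (1.06-fold) between FGFR3KO and FGFR3WT. The Hk2 call depended on the floor, with a log2 difference of 0.95 when an offset replaced the floor and 0.12 with the floor at the 60th percentile.

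Phosphofructokinase, the committed step, is made of liver (Pfkl), muscle (Pfkm) and platelet (Pfkp) subunits. Pfkl was level, with signals of 1983 for FGFR3Act, 2017 for FGFR3KO and 2111 for FGFR3WT. Pfkm had signals of 623, 610.0 and 740.2 in the same order. Pfkp was lower on both mutants, at 195 on FGFR3Act and 266 on FGFR3KO against 380.5 on FGFR3WT, or 1.95-fold and 1.43-fold. Its other probe set gave smaller differences, with log2 values of -0.46 and -0.40. For the first probe set, raising the floor to the 60th percentile took the FGFR3Act value from -0.96 to -0.18 and the FGFR3KO value from -0.51 to -0.11. Pfkfb3, whose product makes the allosteric activator of phosphofructokinase, was also highest on FGFR3WT, with 285 against 166 on FGFR3Act and 210.2 on FGFR3KO.

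Of the enzymes from aldolase to phosphoglycerate kinase, Aldoa, Tpi1 and Pgk1 differed by less than 2-fold in each pair of arrays. Aldoa, which splits fructose bisphosphate, had signals of 7345 for FGFR3Act, 8815 for FGFR3KO and 6750.2 for FGFR3WT, within 1.31-fold. Aldoa was read from 1 probe set, with the _f_ suffix. Its log2 difference of FGFR3Act from wild type, 0.12, became -0.10 after quantile normalisation and -0.07 after cyclic loess. Aldoc, its brain-type isozyme, was at 150.4 on FGFR3Act, 102 on FGFR3KO and 176 with FGFR3WT, the FGFR3KO value being below the floor and at least 1.45-fold under wild type. Tpi1, which interconverts the triose phosphates, had signals of 4996, 5396 and 5933. Pgk1, the first step that yields ATP, was highest on FGFR3Act at 7887, with 5848 on FGFR3KO and 5051 on FGFR3WT, a 1.56-fold difference between the ends. Gapdh, the oxidation step between Tpi1 and Pgk1, could be read only from the control probe set at the 5′ end of its transcript, which depends on RNA integrity as well as on level. It gave 3323 for FGFR3Act, 5478 for FGFR3KO and 6019 for FGFR3WT, with log2 differences from FGFR3WT of -0.86 and -0.14.

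Among the last steps, enolase isozymes parted between the mutants. Eno3, the muscle form, had signals of 210.3 for FGFR3Act, 673 for FGFR3KO and 382 for FGFR3WT. FGFR3Act was 1.81-fold below and FGFR3KO 1.76-fold above wild type, and the mutants were 3.20-fold apart. When the floor was raised to the 60th percentile, the Eno3 log2 difference of FGFR3Act from wild type went from -0.86 to -0.19, and the mutants were still just over 2-fold apart. Eno2, the neuronal form, was at 240.3, 189 and 241, and the ratio of Eno3 to Eno2 differed 4.07-fold between the mutants. Pgam1, the phosphoglycerate mutase, had signals of 5685, 4418 and 5275, and Pgam2, its muscle isozyme, was below the floor (6.28 to 9.52). Pkm, the pyruvate kinase, was within 1.39-fold, at 9824 on FGFR3Act, 7088 on FGFR3KO and 7632 with FGFR3WT.

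Bpgm lay furthest from wild type on FGFR3KO among the 27 members compared. It encodes bisphosphoglycerate mutase, which makes 2,3-bisphosphoglycerate in a side branch of glycolysis and is best known from red cells. Its signal was 619 on FGFR3KO, 1448 on FGFR3Act and 2556 on FGFR3WT. FGFR3KO was 4.13-fold below wild type, FGFR3Act 1.77-fold below it, and the mutants 2.34-fold apart. Wild type was thus highest, unlike Adm and Egln1, for which FGFR3Act matched or exceeded it. Over the 11 alternative settings the Bpgm log2 difference between FGFR3KO and FGFR3WT ran from -2.05 to -1.97. Only the normalisations and the offset could alter it, since Bpgm has 1 probe set, well above each floor tried.

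**Figure D3:**
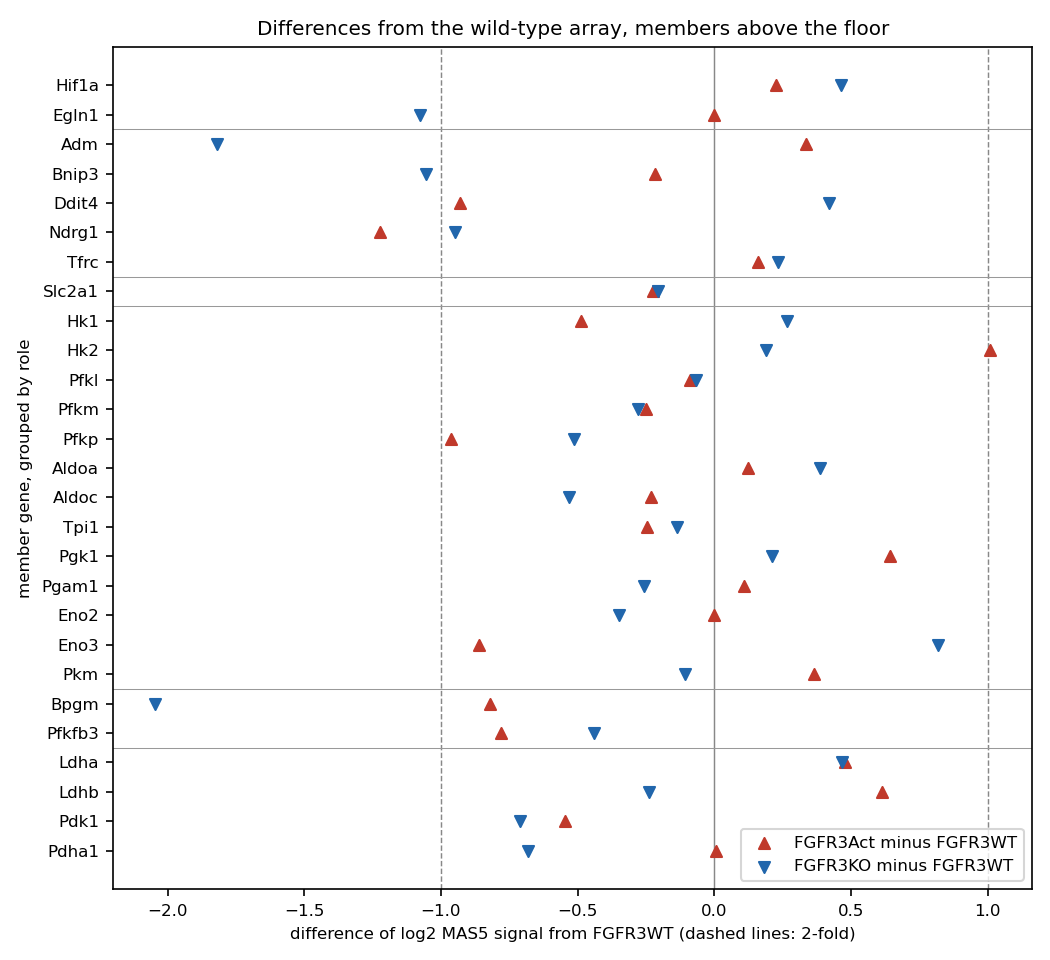
Difference of log2 MAS5 signal from the FGFR3WT array for the 27 members above the floor, FGFR3Act as red triangles and FGFR3KO as blue triangles, with dashed lines at 2-fold. Bpgm, Adm, Egln1 and Bnip3 are the 4 FGFR3KO points beyond the left dashed line, and Ndrg1 and Hk2 are the FGFR3Act points beyond the lines.

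Among the members, the 1 transporter and the 4 genes of pyruvate fate that were compared differed by less than 2-fold in each pair of arrays. Slc2a1, the basal glucose transporter GLUT1, had signals of 667 for FGFR3Act, 676 for FGFR3KO and 779 for FGFR3WT. Slc2a3 (32.1 to 78.1) and the lactate transporter gene Slc16a1 (4.15 to 19.9) were below the floor. Ldha, the main subunit of lactate dehydrogenase in fibroblasts, had signals of 14032 on FGFR3Act and 13919.7 on FGFR3KO, against 10080.5 on FGFR3WT. The Ldha log2 difference of FGFR3KO from wild type, 0.47, became -0.04 after quantile normalisation and -0.06 after cyclic loess, and that of FGFR3Act went from 0.48 to 0.21 and 0.20. Ldhb, the subunit of the heart-type enzyme, had signals of 777 for FGFR3Act, 431 for FGFR3KO and 508 for FGFR3WT. Pdk1, the kinase that shuts off pyruvate dehydrogenase and a HIF target, was lower on both mutants, at 323 and 288 against 472. Pdha1, the enzyme subunit that this kinase acts on, had signals of 3175 on FGFR3Act, 1969 on FGFR3KO and 3159.75 with FGFR3WT, which puts FGFR3KO 1.60-fold below wild type.

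Of the 26 members above the floor on all arrays, FGFR3WT was highest in 12, FGFR3Act in 8 and FGFR3KO in 6. FGFR3KO was lowest in 11, FGFR3Act in 9 and FGFR3WT in 6. Over all 4503 such genes FGFR3WT was highest in 31.3% and FGFR3KO lowest in 36.5%, against 46.2% and 42.3% of the members. These shares rest on few genes and are given as descriptions.

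Other genes of the HIF pathway, taken from a list apart from the members, were also read. That list too was chosen with earlier results of these data known, and its values come from the same arrays. Of 23 compared in FGFR3KO against FGFR3WT, 14 were lower at any size (51.5% of all genes were), 4 by 2-fold or more, and 0 were higher by that much, beside the 3.61% and 1.93% of all genes given above. Ackr3, a scavenging chemokine receptor, had signals of 178 on FGFR3KO, 823 on FGFR3WT and 873 on FGFR3Act, and was 4.62-fold below wild type. Ak4, a mitochondrial adenylate kinase, was at 139, 332 and 317 in that order. Bhlhe40, a transcriptional repressor, was at 269, 603 and 584. Cited2, which competes with HIF for the coactivators CBP and p300, was at 973, 1962 and 2771. In each of these 4 the FGFR3KO signal was the low one and FGFR3Act lay from 1.05-fold below to 1.41-fold above FGFR3WT. The Ak4 signal of 139 on FGFR3KO lay close to the floor of 122. With the floor at the 60th percentile, 16 genes of the list were compared, and Ak4 was not among them. The FGFR3KO signals of Ackr3 and Bhlhe40 lay under that floor, which makes their differences smaller. The new sizes were not computed, so the 2-fold calls of Ak4, Ackr3 and Bhlhe40 depend on the floor or may do so. Cited2 lay over it on both arrays. For FGFR3Act against FGFR3WT, 16 of 23 were lower at any size (55.7% of all genes were), and 0 were 2-fold apart in either direction (8.92% of all genes), with a range of -0.57 to 0.66. The list's medians were -0.20 for FGFR3KO and -0.16 for FGFR3Act against FGFR3WT, beside -0.02 and -0.07 over all genes.

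**Figure D4:**
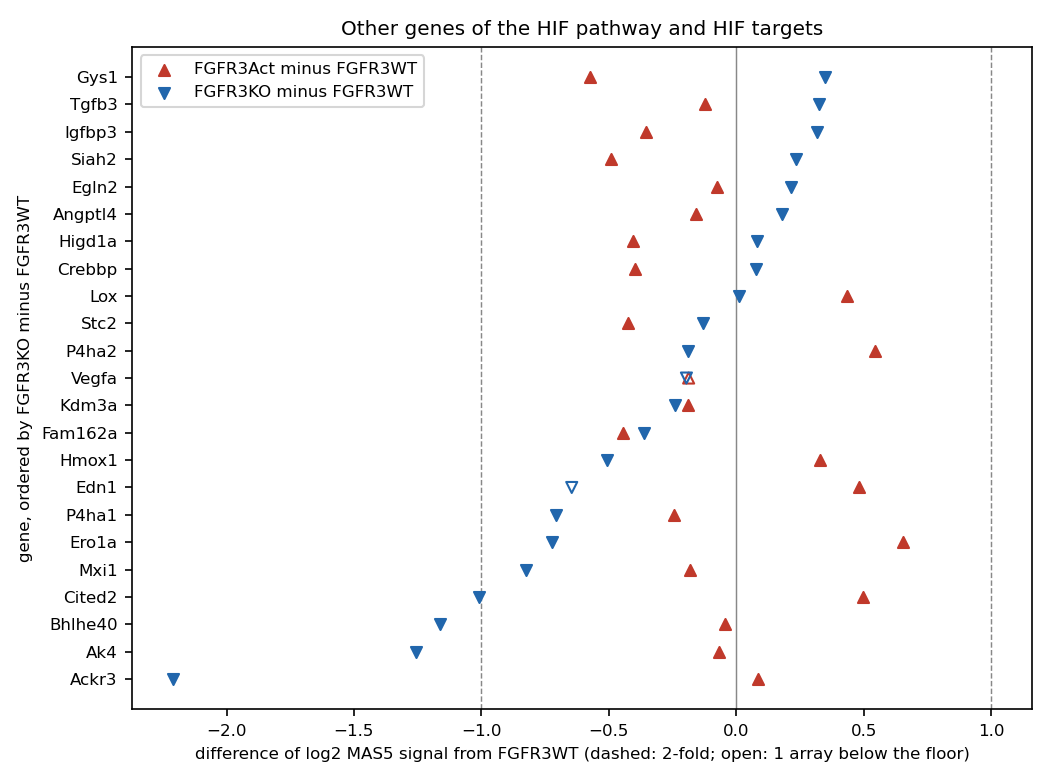
Difference of log2 MAS5 signal from the FGFR3WT array for the 23 other HIF pathway and target genes compared, ordered by the FGFR3KO value (blue, FGFR3Act in red, open symbols where 1 array was below the floor). The 4 lowest FGFR3KO points (Ackr3, Ak4, Bhlhe40 and Cited2) lie beyond 2-fold, whereas every FGFR3Act point lies between -0.57 and 0.66.

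FGFR3Act against FGFR3KO had 6 of 22 genes of this list higher by 2-fold or more and 0 lower, where 8.33% of all genes were higher and 7.49% lower. The 6 were the 4 just named and Ero1a and Edn1. Ero1a, an oxidase of the endoplasmic reticulum, had signals of 5901 for FGFR3Act, 2271 for FGFR3KO and 3748 for FGFR3WT. Edn1, the vasoconstrictor endothelin 1, had 266 on FGFR3Act and 191 on FGFR3WT and was below the floor on FGFR3KO at 92.8. Ero1a, Edn1 and Ak4 each have 2 probe sets, and the values given are those of the probe set of higher mean signal alone. Other genes of the list lay closer together. The lysyl oxidase gene Lox was within 1.35-fold, at 8348, 6219 and 6178 on FGFR3Act, FGFR3KO and FGFR3WT, and the histone demethylase gene Kdm3a within 1.18-fold, at 374, 361 and 427. Vegfa, the angiogenic growth factor, was above the floor on FGFR3WT alone, at 139.6, with 47.3 on FGFR3Act and 86.3 on FGFR3KO, so that the size of its differences could not be read. Egln2, a second prolyl hydroxylase, was within 1.22-fold (2209, 2699 and 2325), unlike Egln1.

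Beyond the members, 20 enzymes of glucose, pyruvate and pentose phosphate metabolism could be compared between FGFR3Act and FGFR3WT. By 2-fold or more, 2 were higher and 3 lower, against 4.14% and 4.79% of all genes. Isozymes of pyruvate dehydrogenase kinase parted on FGFR3Act. Pdk4, induced in fasting, had a signal of 938 for FGFR3Act, 242 for FGFR3KO and 267 for FGFR3WT, and was 3.51-fold above wild type. Pdk3 had 1029, 2526 and 2485, and was 2.42-fold below it. The pentose phosphate enzyme gene Taldo1 was at the 2-fold line on FGFR3Act (2047 against 1024). Pck2, the mitochondrial enzyme that makes phosphoenolpyruvate, was 2.53-fold lower (734 against 1858), and the glycerol phosphate dehydrogenase gene Gpd1 at least 2.14-fold lower (105 against 262). These FGFR3Act differences lie on the array with the summed macrophage marker signal of 19867, against 1253 on FGFR3WT.

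In FGFR3KO against FGFR3WT, 1 of 19 of these enzymes was 2-fold apart, against 5.54% of all genes. This was Gpd2, the mitochondrial glycerol phosphate dehydrogenase, 2.67-fold higher at 769 against 288, read from an _f_ probe set. FGFR3Act against FGFR3KO had 3 of 20 higher (Pdk4, Taldo1 and the malic enzyme gene Me1) and 3 lower (Pck2, Gpd1 and Pdk3), against 8.33% and 7.49% of all genes. Genes for other parts of the pyruvate dehydrogenase complex were picked out after their values were seen. Pdhb was at 1798 on FGFR3Act, 1074 on FGFR3KO and 2053 with FGFR3WT. The E2 gene Dlat was at 701, 608 and 720.1, and the E3 gene Dld at 1823, 1213 and 1575. Each was less than 2-fold from wild type and lowest on FGFR3KO, as were 36.5% of all genes above the floor on the 3 arrays.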

How the data were processed

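RNA of dermal fibroblasts was hybridised to Affymetrix arrays, 1 column per genotype, with 15 μg of total RNA labelled, as the labels' protocols state. The deposited intensities are linear MAS5 signals per the submitters' processing notes. Its version and scaling target are not stated there, and detection calls were not used. The 3 columns had trimmed means (2% at each end) of 604 to 612. The table has 9889 probe sets, 18 of them controls. The platform annotation lists 9376, of which 9053 have 1 symbol and 323 several. Of the 9053, 9041 were matched by gene identifier to RefSeq (GRCm38.p6), whose symbol was used. Control probe sets were left out of the members.

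Where a gene had several probe sets, that of highest mean log2 signal was taken. Signals were raised to the floor, differences of log2 signal were taken without further scaling, and a gene was called at 2-fold, a size and not a test. Each difference is a fold computed from the deposited intensities. With 1 column per genotype no test, error or paired analysis was possible, and the number of arrays limits the precision. Members and lists were chosen with earlier results of these data known. Named in full were members at least 2-fold apart in any pair, Hif1a, Epas1 and Arnt and the enzymes Pkm, Aldoa and Pgk1 (picked by probe set signal, which is no order of transcript levels), and in the other lists genes at least 2-fold apart. Other members were added for the account by role, and Lox, Kdm3a, Vegfa, Egln2, Pdhb, Dlat, Dld, Fth1, Ireb2 and Slc11a2 were chosen after their values were seen. The 11 alternatives were quantile normalisation, cyclic loess, centring on the median, a floor at the 20th or the 60th percentile, an offset of 16 with no floor, requiring both arrays over the floor, dropping the filter, the mean over probe sets, leaving out _s_ and _x_ probe sets, and keeping control probe sets. The arithmetic was tested on simulated arrays. Python 3.11.15, pandas 2.3.3 and statsmodels 0.14.6 were used. Motifs were searched in RefSeq promoter sequences.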

Additional observations from a re-analysis of the deposited data

How the results depend on the processing

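All 11 alternatives were run. Of the summary values, 219 stayed close to the main value, taken as within 0.2 in log2 for medians and within 1.5 times for counts, and 12 moved. Of the single-gene values, 870 kept their side of 2-fold and 4 fell below it. A gene with 1 probe set well above every floor tried keeps its value under most settings. Much of the 870 was thus fixed in advance. Genes that a setting removed from a comparison are not among these values. The sign changed in 23 of the 874, 0 of them 2-fold apart at the outset. Of the 23, 16 started within 0.2 of no difference. The other 7 were Hif1a in all 3 pairs after quantile normalisation (-0.01 on FGFR3Act and -0.02 on FGFR3KO against FGFR3WT, 0.00454 between the mutants), and, on FGFR3KO against FGFR3WT, Ldha after quantile normalisation (-0.04) or cyclic loess (-0.06), Pgk1 after cyclic loess (-0.05) and Tfrc with the mean over probe sets (-0.54). The 4 that fell below 2-fold were Hk2 on FGFR3Act against FGFR3WT with the floor at the 60th percentile (0.12) or an offset (0.95), and Bnip3 on FGFR3KO against FGFR3WT after quantile normalisation (-0.97) or cyclic loess (-0.97). Without the Hk2 call, the members 2-fold apart on FGFR3Act against FGFR3WT numbered 1 under both of those settings in place of 2. The HIF-linked median on FGFR3KO against FGFR3WT moved from -0.95 to -0.43 with the floor at the 20th percentile and to 0.0136 with no filter, as 9 members in place of 7 then entered, and on FGFR3Act against FGFR3KO it moved from -0.07 to 0.82 with the mean over probe sets. That median is the value of Tfrc under both settings, and the probe set of Tfrc below the floor enters the mean. With no filter, the other HIF list moved to 0.0116 on FGFR3KO against FGFR3WT and to 0.00864 on FGFR3Act against FGFR3KO, as genes below the floor on both arrays entered at the ratio of the floors. The iron list, of 3 to 5 genes, moved to 0.85 (floor at the 60th percentile) and 0.0222 (no filter) on FGFR3Act against FGFR3WT. On FGFR3KO against FGFR3WT it moved to -0.86 (20th), 0.22 (60th) and 0.0136 (no filter). No paired analysis was possible because each group has 1 column. Signals near the floor limit what can be read of Epas1, Arnt, Slc2a3, Slc16a1 and Pgam2.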

Other observations

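Iron handling and the tricarboxylic acid cycle, which border on Tfrc and on pyruvate use, were read from lists of their own. Of 15 cycle enzymes, 0 were 2-fold apart on FGFR3Act against FGFR3WT and 1 on FGFR3KO against FGFR3WT, beside 8.92% and 5.54% of all genes. That gene was Sdha, the flavoprotein of succinate dehydrogenase, at the 2-fold line with a signal of 151 on FGFR3KO, 303 on FGFR3WT and 441 on FGFR3Act. The FGFR3KO signal lay close to the floor of 122. With the floor at the 60th percentile, 14 cycle enzymes were compared in FGFR3KO against FGFR3WT, and Sdha, the lowest in signal, dropped out. The other succinate dehydrogenase subunits did not share the order of Sdha. Sdhb had 1926 on FGFR3KO, above 1651 on FGFR3WT and 1237 on FGFR3Act, and Sdhc and Sdhd lay within 1.26-fold. On FGFR3Act against FGFR3KO, Sdha was 2.91-fold higher and the mitochondrial isocitrate dehydrogenase gene Idh2 2.04-fold lower (509 against 1040.4), beside 15.8% of all genes 2-fold apart.

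Of 4 iron genes compared in FGFR3KO against FGFR3WT, 1 was 2-fold apart, beside 5.54% of all genes. This was Hfe, a regulator of iron uptake, 2.01-fold lower on FGFR3KO, with signals of 160.2 and 323. Its signal of 325 on FGFR3Act was 2.03-fold above that on FGFR3KO, where 8.33% of all genes were at least 2-fold higher. With the floor at the 60th percentile, 3 iron genes were compared in FGFR3KO against FGFR3WT. Hfe, the lowest of the 4 in signal, then dropped out. Fth1, the ferritin heavy chain that stores iron, was highest on FGFR3Act at 13083, with 8326 on FGFR3KO and 6892 on FGFR3WT, a 1.90-fold difference from wild type. Ireb2, which regulates iron genes after transcription, was at 379 on FGFR3Act, 239.7 on FGFR3KO and 462 on FGFR3WT, so that FGFR3KO was 1.93-fold below wild type. Slc11a2, a carrier of ferrous iron, had 1656 on FGFR3Act, 1074 on FGFR3KO and 920.1 on FGFR3WT. The FGFR3Act array also held the higher macrophage markers, with 11 of 14 above the floor, and their part in these values was not tested.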
